A study of Mus musculus with 10 samples.

Results

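The collagen chain genes of mouse calf muscle are described here in animals that had received ethanol or saline 1 h earlier. They were chosen by name alone, as the rows of the deposited count table whose symbol is Col, a number, the letter a and a number, which gave 44 of 24421 rows, of which 39 were among the 13180 genes with enough reads to test. Reads were counted in polyadenylated RNA of the gastrocnemius and plantaris, hindlimb muscles dissected as a single complex. The 5 ethanol mice (51, 57, 59, 60 and 62) received an intraperitoneal injection of ethanol at 3 g/kg, and the 5 saline mice (32, 34, 36, 38 and 39) the same volume of saline. All 10 were male C57BL/6 mice aged 12 weeks, had fasted for about 16 h, and stayed without food until the muscle was dissected under isoflurane. Each library is 1 mouse, and the study as deposited has 1 dose and 1 time. Every value below is in CPM, counts scaled to the library's total and to the trimmed mean of M values (TMM), unless another unit is named. Values of single libraries are listed in the order of the mouse numbers above.

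Collagens are trimers of chains whose helical part repeats glycine at regular intervals, and each chain has a gene of its own. Fibrillar collagens build the cables of the connective tissue around fibres and fascicles. Type IV chains form the sheet of the basement membrane around each muscle fibre and capillary. Type VI chains form beaded filaments beside that membrane, and mutations in them cause muscular dystrophies in humans. Multiplexins, fibril-associated collagens with interrupted helices (FACITs) and transmembrane collagens link these networks to each other and to cells. In muscle, fibroblasts and fibro-adipogenic progenitors are a main source of fibrillar and type VI chains, and endothelial cells contribute type IV chains.

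Library totals ran from 20317959 to 31252438 counts in the ethanol group and from 32038927 to 42654771 in the saline group, with no overlap. The labels name no batch or litter. Collagen chains held 33001 to 52740 counts in ethanol and 38882 to 58788 counts in saline libraries. Transcripts rich in G and C ran higher in the ethanol libraries: the slope of centred log2 CPM on GC content was 0.033 to 0.062 per 10% GC in ethanol and -0.113 to 0.0042 in saline libraries. The 39 tested chains had a median GC content of 55.2%, against 50.9% over all tested genes with a value. Saline 36 held the lowest value of the 10 libraries for 13 of the 39 tested chains and the highest for 5. Saline 34 held the lowest value for 9 chains. The highest value was in ethanol 57 for 11 chains and in ethanol 60 for 10. Ethanol 60 held 544 CPM of the summed adipocyte markers, against 125 to 243 CPM in the other ethanol libraries.

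Collagen chains took 0.125% to 0.179% of all counts in ethanol libraries and 0.119% to 0.147% in saline libraries. The type I chains *Col1a1* and *Col1a2*, the type III chain *Col3a1* and the type IV chains *Col4a1* and *Col4a2* held most of these reads. Together those 5 genes made up 73.9 ± 1.37% of collagen CPM in ethanol and 75.5 ± 1.84% in saline libraries (SD, n = 5 each). Per kilobase of annotated exon, *Col4a1* had the highest level, with a mean of 37.4 CPM per kilobase in ethanol and 34.4 in saline mice. *Col1a1* followed at 32.0 and 26.5 CPM per kilobase in ethanol and saline mice, and *Col4a2* at 27.8 and 26.2. *Col1a2* stood at 23.8 and 21.1 CPM per kilobase, *Col3a1* at 16.9 and 12.3, and *Col6a1*, the highest type VI chain, at 13.0 and 9.51. All other chains were below 7 CPM per kilobase in both groups. Chains of fibrils, basement membrane and beaded filaments thus stood at the top of this order. The cartilage chain *Col2a1* was at 0.042 and 0.032 CPM per kilobase in ethanol and saline mice.

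**Figure D1:**
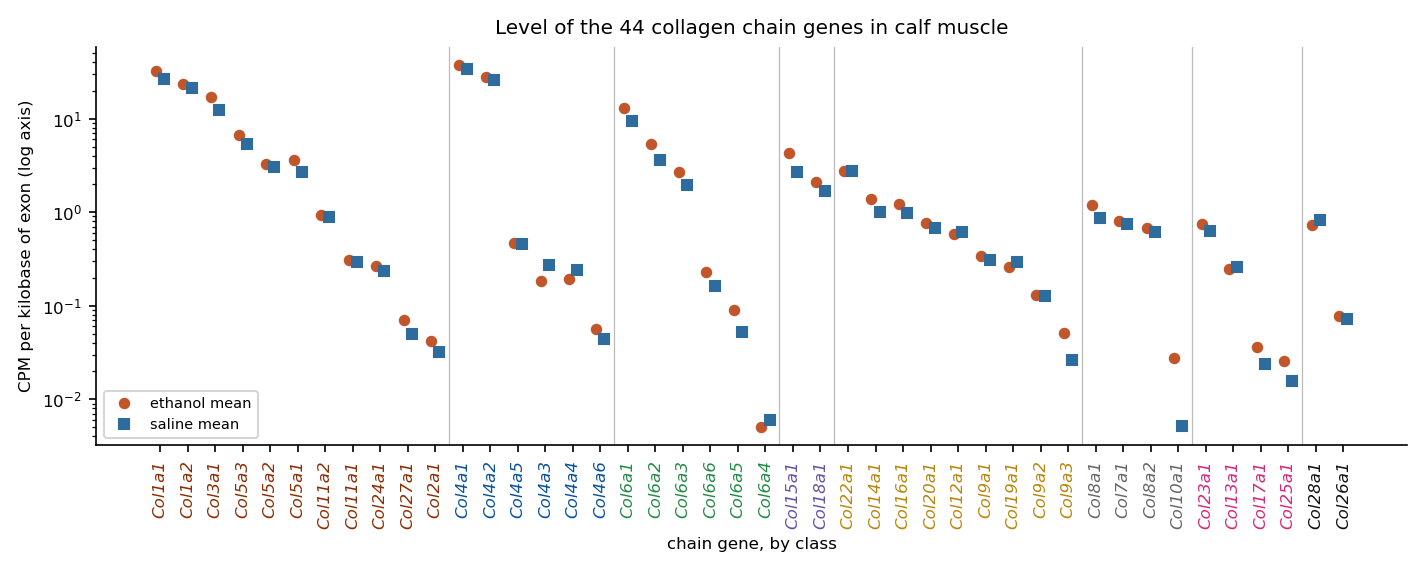
Mean level of each of the 44 collagen chain genes in CPM per kilobase of exon (log axis), with genes ordered by class and by level. Circles are means of 5 ethanol libraries and squares are means of 5 saline libraries, and *Col4a1* is highest at 37.4 and 34.4 CPM per kilobase in ethanol and saline mice.

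The low-count filter removed 5 chains, *Col6a4*, *Col9a3*, *Col10a1*, *Col17a1* and *Col25a1*, and 39 were tested. *Col10a1*, a chain of growth plate cartilage, had 0 to 5 counts per library in ethanol mice and 0 to 1 in saline mice. *Col6a4* had 0 to 3 counts in ethanol and 0 to 4 in saline libraries, and *Col9a3*, a cartilage FACIT chain, had 4 to 8 and 2 to 6. The hemidesmosome collagen gene *Col17a1* had 4 to 10 counts in ethanol and 1 to 11 in saline libraries, and *Col25a1*, needed in mice for the entry of motor axons into muscle, had 5 to 11 and 4 to 9. An edgeR fit with no filter on low counts put 4.51% of all genes higher at an unadjusted p under 0.05, and *Col10a1* and *Col9a3* were among them. Their FDR in that fit was 0.443 for *Col10a1* and 0.501 for *Col9a3*, and the other 3 chains were not at that threshold. No fold is given for these 5 chains, whose counts were few.

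No collagen chain gene passed a false discovery rate (FDR) of 0.05 in edgeR's quasi-likelihood test, as for all 13180 tested genes (0 called, 0.0%), and the smallest FDR of a chain was 0.287. Without adjustment 1599 genes (12.1%) had an edgeR p under 0.05, and limma-voom also called 0 genes after adjustment. At an unadjusted edgeR p under 0.05 there were 11 chains higher in ethanol, 28.2% of the 39 tested, where 6.22% of all tested genes were called in that direction. Lower in ethanol at that threshold was 1 chain, *Col4a3*, 2.56% of the chains, where 5.91% of all tested genes were. The log2 fold change, ethanol minus saline, was positive for 33 chains and negative for 6, where 50.2% of all tested genes were positive, with a median of 0.16, against a median of 0.00096 over all tested genes. DESeq2, run as an alternative, called 2 chains at an adjusted p under 0.05, both higher in ethanol, *Col8a1* and *Col6a2*. It called 0.41% of all tested genes, 0.288% in the higher direction, and gave no adjusted p for 6 of the 39 chains. In CPM, all 5 ethanol libraries lay above all 5 saline libraries for 4 chains, *Col8a1*, *Col6a2*, *Col5a1* and *Col15a1* (10.3%, where 1.36% of all tested genes did so). No chain had all ethanol libraries below all saline libraries (0.819% of all tested genes did). In bulk muscle, more cells of a type and more RNA per cell cannot be told apart.

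The 11 higher chains were 3 of 11 fibrillar, 4 of 5 type VI, both multiplexin, 1 of 8 FACIT and 1 of 3 network or anchoring chains, and none of 6 type IV chains. The difference between classes was not tested. The split depended on the fit: with 1 surrogate variable 12 chains were higher at that threshold (5.90% of all genes), with *Col4a1*, *Col4a2*, *Col16a1* and *Col7a1* among them and *Col6a3*, *Col6a5* and *Col15a1* not. *Col8a1* and *Col6a2* stayed at an unadjusted p under 0.05 in all 23 alternative fits. *Col3a1*, *Col6a1*, *Col14a1* and *Col5a1* did so in 22, the exception being the fit with the mean of the adipocyte markers as a covariate. These chains were singled out by a small p in the same libraries, so the counts of fits are no measure of stability. With the adipocyte covariate 2 chains were higher at an unadjusted p under 0.05, *Col6a2* (log2 fold change 0.37) and *Col8a1* (0.39). These are 5.13% of the 39 chains, beside 3.69% of all genes in the same fit. Without saline 36 and ethanol 60 there were 7 chains (17.9%, beside 4.08% of genes). A fit on values freed of the GC trend had 9 (23.1%, beside 4.94% of genes).

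**Figure D2:**
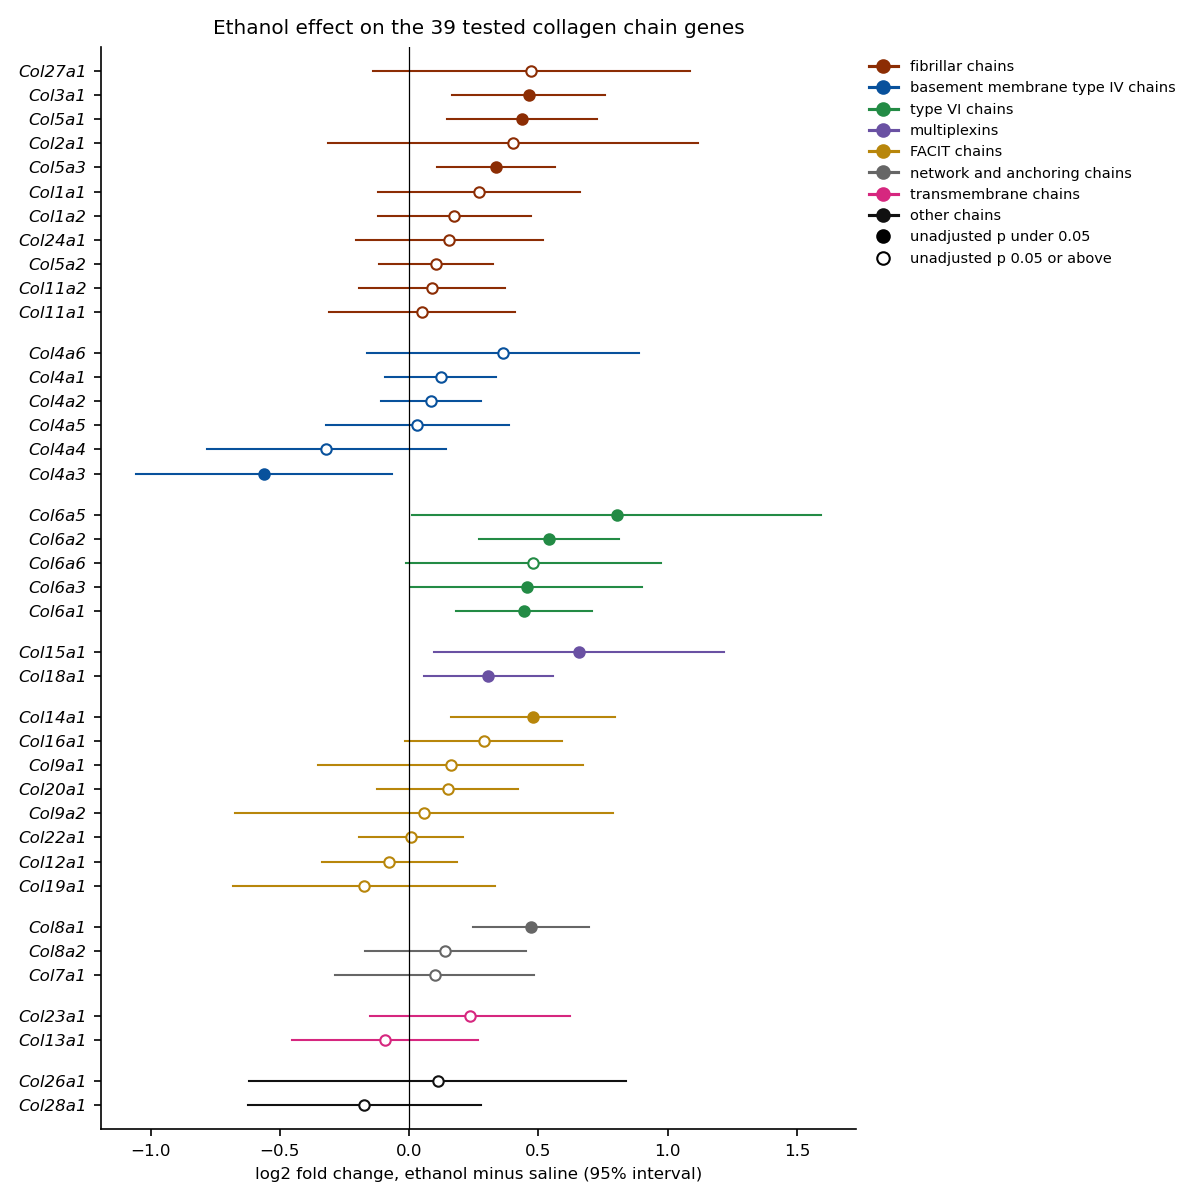
Log2 fold change (ethanol minus saline) of the 39 tested collagen chain genes by class, with 95% intervals from edgeR, 5 libraries per group. Filled points mark an unadjusted p under 0.05. The intervals of 11 chains lie above 0, that of *Col4a3* lies below it, and all others include 0. Type VI and multiplexin points lie between 0.31 and 0.80.

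Among the fibrillar chains, *Col3a1* (chromosome 1, 45311538 to 45349706, GRCm38) had 189, 181, 159, 174 and 128 CPM in ethanol libraries, against 143, 129.6, 87.0, 107 and 136 CPM in saline libraries. It encodes the type III chain of the fine reticular fibrils of the endomysium. The upper 4 ethanol libraries lay above every saline library, and ethanol 62 lay within the saline range. Its log2 fold change was 0.46 ± 0.14 (SE, edgeR unadjusted p = 0.00476, FDR = 0.287), and 0.36 without saline 36.

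*Col5a1* (chromosome 2, 27886425 to 28039514), a type V chain that starts fibrils and limits their width, had 31.0, 29.4, 28.1, 36.7 and 27.9 CPM in ethanol libraries, against 26.7, 23.2, 16.5, 18.9 and 27.7 CPM in saline libraries. Every ethanol value was above the highest saline value, by a small margin between ethanol 62 and saline 39. Its difference on the log2 scale was 0.44 ± 0.14 (SE, edgeR unadjusted p = 0.0062, FDR = 0.303). *Col5a3*, a further type V chain, had 47.9, 43.6, 37.4, 53.6 and 46.3 CPM in ethanol libraries, against 44.1, 36.0, 30.7, 34.2 and 36.2 CPM in saline libraries. Saline 32 reached into the ethanol range, and the other saline libraries stood below all ethanol libraries. Its log2 fold change was 0.34 ± 0.11 (SE, edgeR unadjusted p = 0.0071, FDR = 0.313), and 0.21 without saline 36 and ethanol 60. The remaining type V chain, *Col5a2*, ranged from 24.9 to 37.1 CPM in ethanol and from 25.9 to 30.4 in saline libraries, and the 95% interval of its log2 fold change (0.10) reached from -0.12 to 0.32.

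The type I chains, the bulk of the fibril, had wider spread in ethanol than in saline libraries. *Col1a1* had 267, 234, 157, 243 and 149 CPM in ethanol libraries, against 223, 179, 162, 133 and 174 CPM in saline libraries. *Col1a2*, its partner in the trimer, had 360.5, 329, 217, 327 and 243 CPM in ethanol libraries, against 319.5, 235, 274, 237 and 243 CPM in saline libraries. For both genes ethanol 51, 57 and 60 were above every saline library, while ethanol 59 and 62 lay in the lower part of the saline range or below it. Log2 fold changes were 0.27 ± 0.18 for *Col1a1* and 0.17 ± 0.14 for *Col1a2* (SE), with intervals from -0.12 to 0.66 and from -0.12 to 0.47. Without ethanol 51 they were 0.17 and 0.092.

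The other fibrillar chains were low, and no interval excluded 0. *Col11a2* and *Col11a1*, type XI chains known from cartilage, ranged from 5.28 to 8.47 and from 2.42 to 4.73 CPM in ethanol libraries, against 5.36 to 6.87 and 2.97 to 4.23 CPM in saline libraries. *Col24a1* ranged from 1.61 to 2.47 CPM in ethanol and from 1.54 to 2.29 in saline libraries. *Col27a1* (0.586 to 1.23 CPM in ethanol, 0.384 to 1.03 in saline) and *Col2a1* (0.274 to 0.542 in ethanol, 0.153 to 0.465 in saline) had log2 fold changes of 0.47 ± 0.29 and 0.40 ± 0.33 (SE).

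**Figure D3:**
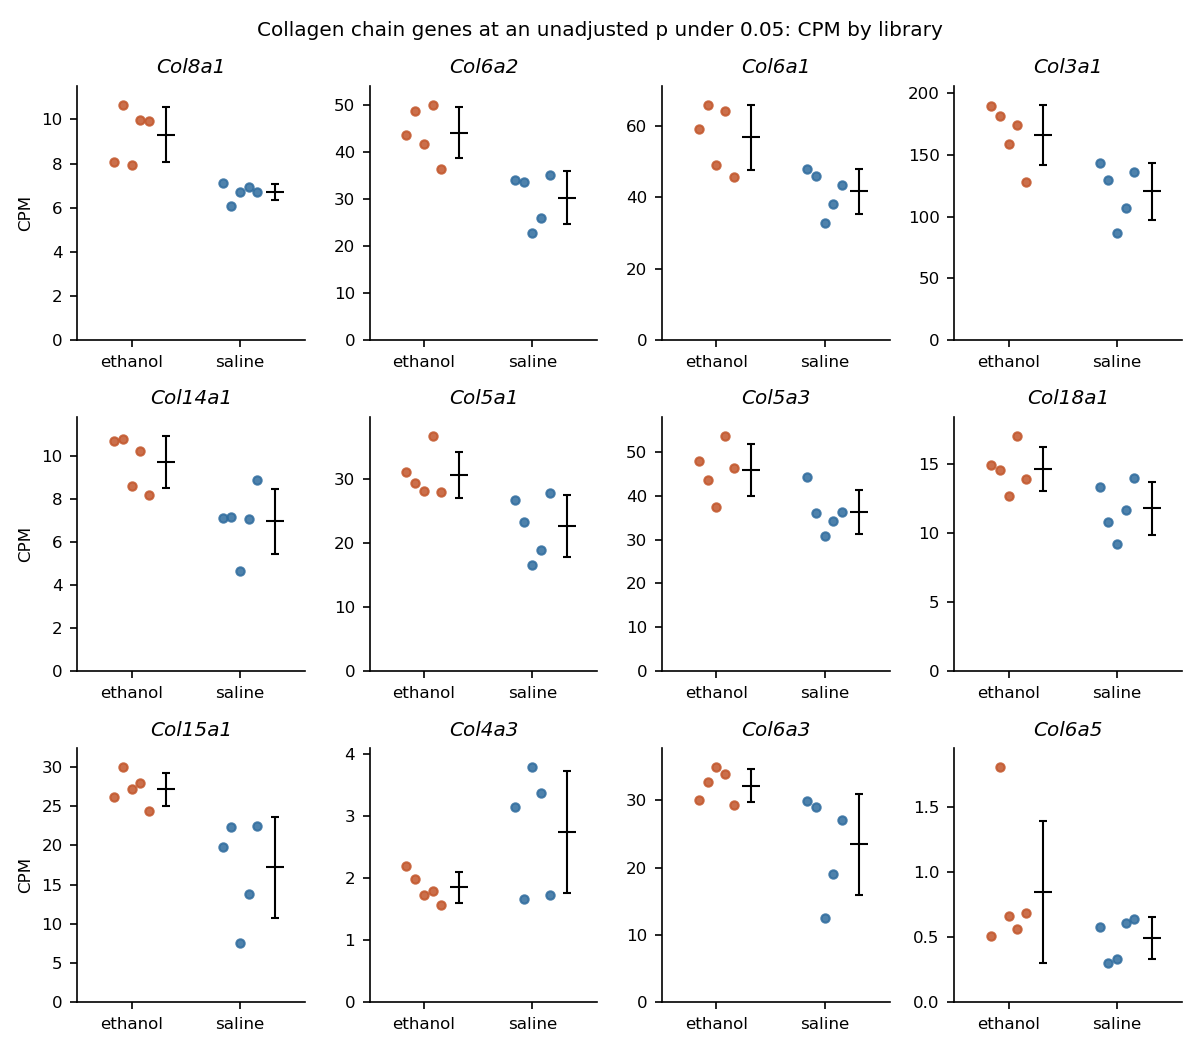
CPM in each library of the 12 collagen chain genes at an unadjusted edgeR p under 0.05, ethanol at the left and saline at the right of each panel. Points are libraries, and the bar and whiskers are the mean and SD of 5. The groups do not overlap for *Col8a1*, *Col6a2*, *Col5a1* and *Col15a1*, and *Col4a3* is the panel with the lower ethanol mean (1.85 against 2.74 CPM).

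*Col4a1* and *Col4a2* encode the chains of the type IV trimer found in nearly every basement membrane. In GENCODE M21 (GRCm38) they lie head to head on chromosome 8, *Col4a1* from 11198423 to 11312826 on the minus strand and *Col4a2* from 11312805 to 11449287 on the plus strand, so their annotated spans share 22 bases. The RefSeq windows (GRCm38.p6) from 250 bases before to 50 bases after each start are printed because the starts of both genes lie in a single stretch of DNA. The windows share 78 bases on opposite strands. Capitals mark motifs read on either strand. The first is the GC box, spelled GGGCGG. The others are the box named by its letters CCAAT, and the TATA box, spelled TATAAA. No motif overlaps another kind in the windows shown. The *Col4a1* window is chr8:11312777-11313076 on the minus strand and the *Col4a2* window is chr8:11312555-11312854 on the plus strand.
Col4a1: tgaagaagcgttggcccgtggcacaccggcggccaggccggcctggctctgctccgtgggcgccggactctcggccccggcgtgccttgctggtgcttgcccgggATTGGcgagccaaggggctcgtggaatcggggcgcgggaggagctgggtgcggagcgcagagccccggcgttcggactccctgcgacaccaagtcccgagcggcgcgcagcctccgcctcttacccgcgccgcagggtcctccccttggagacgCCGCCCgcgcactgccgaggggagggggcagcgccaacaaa
Col4a2: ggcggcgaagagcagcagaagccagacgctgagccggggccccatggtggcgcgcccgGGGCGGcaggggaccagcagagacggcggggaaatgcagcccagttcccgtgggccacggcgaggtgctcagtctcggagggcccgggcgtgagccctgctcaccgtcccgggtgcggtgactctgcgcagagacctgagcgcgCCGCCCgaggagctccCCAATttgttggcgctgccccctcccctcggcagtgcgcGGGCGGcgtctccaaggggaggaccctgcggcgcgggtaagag
The *Col4a1* window held 1 GC box and 1 CCAAT box, and the *Col4a2* window 3 GC boxes and 1 CCAAT box. The GC box of the *Col4a1* window and the last GC box of the *Col4a2* window are the same site. It lies in the shared bases, is read on opposite strands and is counted in both windows. Over the 32851 windows of this length in the RefSeq table, 35.7% held a GC box, 37.4% a CCAAT box and 13.6% a TATA box. A promoter window was matched for 35 of the 44 chain genes, of which 22 held a GC box, 12 a CCAAT box and 5 a TATA box.

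*Col4a1* had 279, 279, 235, 326 and 276 CPM in ethanol libraries, against 255, 218, 302, 253 and 255 CPM in saline libraries. *Col4a2* had 176, 183, 163, 215 and 184 CPM in ethanol libraries, against 178, 151, 197, 169 and 173 CPM in saline libraries. The groups overlapped for both genes, and in each group the same library was highest for both, ethanol 60 and saline 36. Log2 fold changes were 0.12 ± 0.10 for *Col4a1* and 0.08 ± 0.09 for *Col4a2* (SE). Their 95% intervals reached from 0.938-fold to 1.26-fold for *Col4a1* and from 0.927-fold to 1.21-fold for *Col4a2*. The sign of *Col4a2* turned negative (-0.019) when the GC trend of each library was removed. With 1 surrogate variable the values were larger, 0.26 for *Col4a1* and 0.19 for *Col4a2*, both at an unadjusted edgeR p under 0.05.

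*Col4a3* and *Col4a4*, type IV chains best known from the kidney filter and mutated in Alport syndrome, also lie head to head, on chromosome 1 with 72 bases between their starts. *Col4a3* had 2.20, 1.98, 1.72, 1.80 and 1.56 CPM in ethanol libraries, against 3.15, 1.67, 3.79, 3.37 and 1.73 CPM in saline libraries. Saline 34 and saline 39 lay among the ethanol libraries, and the other saline libraries were above all of them. Ethanol minus saline was -0.56 ± 0.23 on the log2 scale (SE, edgeR unadjusted p = 0.029, FDR = 0.375). It was under an unadjusted p of 0.05 in 13 of the 22 alternative fits that tested it, and its exons share 563 bases with an RNA annotated on the opposite strand, C430014B12Rik. *Col4a4* ranged from 1.21 to 2.58 CPM in ethanol and from 1.53 to 3.10 in saline libraries, a log2 fold change of -0.32 ± 0.22 (SE). The third head-to-head pair, on the X chromosome, has 1309 bases between starts. *Col4a5* had 3.63, 3.02, 2.62, 3.69 and 2.94 CPM in ethanol libraries, against 4.20, 2.68, 2.43, 3.37 and 2.85 CPM in saline libraries. The groups overlapped, the log2 fold change was 0.03 ± 0.17 (SE), and its sign was negative without saline 36 (-0.054). *Col4a6* ranged from 0.363 to 0.536 CPM in ethanol and from 0.274 to 0.429 CPM in saline libraries (0.36 ± 0.25).

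All 5 tested type VI chains had log2 fold changes between 0.45 and 0.80, and 4 were at an unadjusted p under 0.05. *Col6a1* and *Col6a2* encode the shorter chains of the type VI monomer and lie in a row on the minus strand of chromosome 10, 85162 bases apart (*Col6a2* from 76595762 to 76623630, *Col6a1* from 76708792 to 76726168). Their promoter windows are shown because both genes stood higher in ethanol libraries, with the same marks as above. The *Col6a2* window is chr10:76623581-76623880 and the *Col6a1* window is chr10:76725995-76726294, both on the minus strand.
Col6a2: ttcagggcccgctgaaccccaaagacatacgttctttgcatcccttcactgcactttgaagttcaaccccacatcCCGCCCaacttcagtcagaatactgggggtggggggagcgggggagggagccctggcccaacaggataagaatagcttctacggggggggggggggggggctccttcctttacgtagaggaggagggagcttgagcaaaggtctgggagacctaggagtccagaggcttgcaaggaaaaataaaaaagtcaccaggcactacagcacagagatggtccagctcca
Col6a1: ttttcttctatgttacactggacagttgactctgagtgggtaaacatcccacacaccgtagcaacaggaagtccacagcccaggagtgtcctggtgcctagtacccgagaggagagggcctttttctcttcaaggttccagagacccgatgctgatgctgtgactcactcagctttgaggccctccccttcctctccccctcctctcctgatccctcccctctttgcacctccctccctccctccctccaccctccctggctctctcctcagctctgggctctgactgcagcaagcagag
The *Col6a2* window held 1 GC box, and none of the searched motifs was in the *Col6a1* window.

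*Col6a2* had 43.8, 48.8, 41.9, 50.1 and 36.6 CPM in ethanol libraries, against 34.1, 33.8, 22.8, 26.0 and 35.3 CPM in saline libraries. Every ethanol library exceeded every saline library. On the log2 scale the difference was 0.54 ± 0.13 (SE, edgeR unadjusted p = 0.000738, FDR = 0.287, DESeq2 adjusted p = 0.0331), and 0.40 without saline 36 and ethanol 60. *Col6a1* had 59.1, 65.8, 49.1, 64.0 and 45.6 CPM in ethanol libraries, against 48.0, 46.0, 32.7, 38.1 and 43.5 CPM in saline libraries. Ethanol 62 lay within the saline range and the other ethanol libraries above it. Its log2 fold change was 0.45 ± 0.12 (SE, edgeR unadjusted p = 0.00281, FDR = 0.287, DESeq2 adjusted p = 0.0984). *Col6a3*, the long chain that completes the monomer, had 30.1, 32.6, 34.9, 33.8 and 29.3 CPM in ethanol libraries, against 29.8, 29.0, 12.5, 19.0 and 27.0 CPM in saline libraries. Saline 36 and saline 38 were far below the rest, and the other saline libraries were close to the lowest ethanol libraries. Its log2 difference was 0.45 ± 0.20 (SE, edgeR unadjusted p = 0.0473), 0.29 without saline 36 (unadjusted p = 0.0292), and the p was under 0.05 in 10 of 23 alternative fits.

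*Col6a6* and *Col6a5*, chains that can stand in for *Col6a3*, lie with *Col6a4* in a row on chromosome 9 and were far lower. *Col6a6* had 2.29, 1.94, 2.38, 2.41 and 1.49 CPM in ethanol libraries, against 1.71, 2.03, 0.793, 1.26 and 1.73 CPM in saline libraries. Saline 36 was lowest and the groups overlapped, with a log2 difference of 0.48 ± 0.23 (SE, edgeR unadjusted p = 0.0554), and 0.31 without saline 36. *Col6a5* had 0.51, 1.81, 0.665, 0.568 and 0.689 CPM in ethanol libraries, against 0.579, 0.301, 0.333, 0.613 and 0.643 CPM in saline libraries. Ethanol 57 stood alone. Over all libraries the difference was 0.80 ± 0.37 on the log2 scale (SE, edgeR unadjusted p = 0.0477), and leaving ethanol 57 out gave 0.30. The p was under 0.05 in 12 of the 22 alternative fits that tested *Col6a5*.

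The multiplexins *Col15a1* and *Col18a1* encode collagens of the basement membrane zone. Loss of *Col15a1* in mice causes a mild myopathy, and the end of the *Col18a1* product is the antiangiogenic fragment endostatin. *Col15a1* (chromosome 4, 47208161 to 47313167) had 26.2, 30.0, 27.2, 28.0 and 24.4 CPM in ethanol libraries, against 19.8, 22.3, 7.55, 13.9 and 22.4 CPM in saline libraries. The groups did not overlap, and saline 36 and saline 38 were the lowest. Ethanol exceeded saline by 0.66 ± 0.25 on the log2 scale (SE, edgeR unadjusted p = 0.0258, FDR = 0.371), or 0.46 without saline 36 (unadjusted p = 0.00249). *Col18a1* had 14.9, 14.6, 12.7, 17.1 and 13.9 CPM in ethanol libraries, against 13.4, 10.8, 9.26, 11.7 and 14.0 CPM in saline libraries. Saline 32 and saline 39 fell inside the ethanol range. Its log2 fold change was 0.31 ± 0.12 (SE, edgeR unadjusted p = 0.0198), and 0.21 with the GC trend removed (unadjusted p = 0.0817).

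*Col8a1* (chromosome 16, 57624258 to 57754737), a short chain that forms hexagonal nets in vessel walls, had the smallest p of the 39 chains. It had 8.06, 10.7, 7.94, 9.98 and 9.91 CPM in ethanol libraries, against 7.10, 6.10, 6.70, 6.93 and 6.73 CPM in saline libraries. Every ethanol library was above every saline library, and the saline libraries lay close together. The log2 fold change was 0.47 ± 0.10 (SE, edgeR unadjusted p = 0.000502, FDR = 0.287, DESeq2 adjusted p = 0.0203), and leaving out single libraries gave 0.41 to 0.52. Its promoter window is printed as that of the chain with the smallest p, chr16:57754688-57754987 on the minus strand, with the same marks.
Col8a1: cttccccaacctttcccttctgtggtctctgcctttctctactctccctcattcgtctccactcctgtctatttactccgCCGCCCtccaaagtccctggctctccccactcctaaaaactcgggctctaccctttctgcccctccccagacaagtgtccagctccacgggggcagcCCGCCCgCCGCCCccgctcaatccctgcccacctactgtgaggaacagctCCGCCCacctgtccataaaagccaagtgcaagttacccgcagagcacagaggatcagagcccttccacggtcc
It held 4 GC boxes and neither of the other motifs. Its partner gene *Col8a2* had 2.84, 3.59, 2.62, 3.26 and 3.08 CPM in ethanol libraries, against 3.40, 3.09, 2.69, 2.24 and 2.51 CPM in saline libraries. *Col7a1*, the chain of the anchoring fibrils of skin, had 10.1, 6.47, 8.33, 6.81 and 9.69 CPM in ethanol libraries, against 7.10, 5.36, 11.0, 7.82 and 7.43 CPM in saline libraries. Both overlapped between groups, with log2 fold changes of 0.14 ± 0.15 for *Col8a2* and 0.10 ± 0.18 for *Col7a1* (SE), and -0.0047 for *Col7a1* without saline 34.

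Of the FACIT chains, *Col14a1* (chromosome 15, 55307750 to 55520803), which coats the surface of fibrils, had 10.7, 10.8, 8.64, 10.3 and 8.20 CPM in ethanol libraries, against 7.15, 7.17, 4.66, 7.08 and 8.88 CPM in saline libraries. Saline 39 lay above the 2 lowest ethanol libraries, and the other saline libraries lay below all of them. The log2 fold change was 0.48 ± 0.15 (SE, edgeR unadjusted p = 0.00594, FDR = 0.303). *Col22a1*, a collagen of the myotendinous junction and the FACIT chain with the highest level per kilobase, had 26.5, 21.7, 25.6, 28.0 and 25.4 CPM in ethanol libraries, against 25.5, 23.1, 30.3, 22.6 and 25.0 CPM in saline libraries. The means were 25.4 ± 2.35 and 25.3 ± 3.06 CPM in ethanol and saline mice (SD, n = 5 each), and the 95% interval of the fold change ran from 0.873 to 1.16. *Col12a1*, a fibril-surface chain whose mutation causes a myopathy in humans, ranged from 7.94 to 10.01 CPM in ethanol and from 7.61 to 12.0 in saline libraries (log2 fold change -0.08 ± 0.12, SE). *Col16a1* had 9.11, 9.55, 6.10, 8.75 and 7.29 CPM in ethanol libraries, against 8.51, 6.13, 6.86, 5.61 and 6.29 CPM in saline libraries. *Col20a1* had 3.15, 4.19, 3.75, 4.07 and 4.39 CPM in ethanol libraries, against 3.83, 3.01, 3.94, 3.31 and 3.49 CPM in saline libraries. Both genes overlapped between groups, with log2 fold changes of 0.29 ± 0.14 for *Col16a1* (edgeR unadjusted p = 0.0612) and 0.15 ± 0.13 for *Col20a1* (SE). *Col19a1*, *Col9a1* and *Col9a2* were below 3 CPM in every library, with log2 fold changes of -0.18, 0.16 and 0.06 and intervals that included 0.

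The remaining chains were low and their intervals included 0. *Col13a1*, a transmembrane collagen needed for the neuromuscular junction, had 0.988, 1.11, 1.37, 0.946 and 1.23 CPM in ethanol libraries, against 1.11, 1.31, 1.18, 1.32 and 1.12 CPM in saline libraries. *Col23a1*, also a transmembrane collagen, had 4.46, 5.90, 3.17, 4.49 and 3.37 CPM in ethanol libraries, against 4.61, 2.87, 3.20, 3.46 and 4.05 CPM in saline libraries. The groups overlapped, with log2 fold changes of -0.094 ± 0.17 for *Col13a1* and 0.24 ± 0.18 for *Col23a1* (SE), and ethanol 57 was the highest library for *Col23a1* (0.086 without it). *Col28a1*, a chain of the basement membrane around Schwann cells in mice, had 4.59, 3.79, 2.15, 4.02 and 3.27 CPM in ethanol libraries, against 4.76, 2.54, 4.94, 4.45 and 3.44 CPM in saline libraries. *Col26a1* had 0.86, 0.737, 0.586, 0.615 and 0.363 CPM in ethanol libraries, against 0.906, 0.903, 0.333, 0.46 and 0.335 CPM in saline libraries. Both overlapped between groups, at -0.17 ± 0.21 for *Col28a1* and 0.11 ± 0.34 for *Col26a1* on the log2 scale (SE), and the sign of *Col26a1* was negative without saline 36 (-0.052).

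Summed by class, type VI chains stood at 136 ± 15.8 CPM in ethanol and 97.6 ± 19.6 CPM in saline libraries (SD, n = 5 each), a ratio of 1.40. Ethanol 62 (113.8 CPM) lay just below the highest saline library (114.3 CPM in saline 32), and the other 4 ethanol libraries lay above all saline libraries. Multiplexins summed to 41.8 ± 2.94 CPM in ethanol and 29.0 ± 7.91 CPM in saline libraries, a ratio of 1.44, with no overlap of the groups and a ratio of 1.30 without saline 36. Fibrillar chains summed to 793 ± 147 CPM in ethanol and 657 ± 87.4 CPM in saline libraries, a ratio of 1.21. Type IV chains had the smallest ratio of these 4 classes, 1.07, at 471 ± 51.5 CPM in ethanol and 439 ± 47.2 CPM in saline libraries. A low ratio was not particular to them. FACIT chains had nearly the same ratio, 1.077, and the remaining chains *Col26a1* and *Col28a1* together a lower ratio, 0.9095. Network and anchoring chains (1.202) and transmembrane chains (1.147) had higher ratios than type IV chains. As a share of collagen CPM, type IV chains made up 30.7% in ethanol and 33.6% in saline mice, and type VI chains 8.88% and 7.47%. These sums were not tested.

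**Figure D4:**
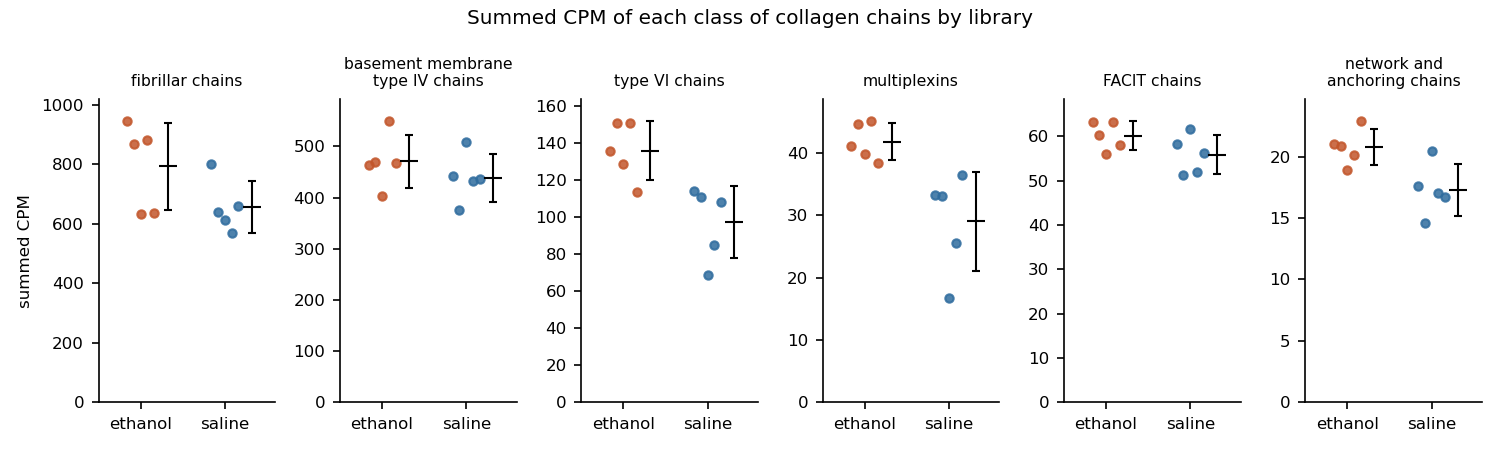
Summed CPM of the chains of 6 collagen classes in each library, ethanol at the left and saline at the right. Points are libraries, and the bar and whiskers are the mean and SD of 5. Mean ratios of ethanol to saline are 1.40 for type VI, 1.07 for type IV and 1.077 for FACIT chains.

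Chains that share a trimer or a fibril were also set against each other within each library. The CPM ratio of *Col4a1* to *Col4a2* was nearly constant, at 1.52 ± 0.052 in ethanol and 1.48 ± 0.043 in saline libraries (SD, n = 5 each). *Col1a1* to *Col1a2* was 0.707 ± 0.053 in ethanol and 0.666 ± 0.085 in saline libraries. *Col6a1* to *Col6a2* was 1.28 ± 0.075 in ethanol and 1.38 ± 0.091 in saline libraries. The ratios that varied most between libraries were those with *Col6a3*, *Col5a1* and *Col3a1*. *Col6a3* to *Col6a1* ran from 0.496 to 0.712 in ethanol and from 0.383 to 0.629 in saline libraries. *Col5a1* to *Col5a2* ran from 0.793 to 1.13 in ethanol and from 0.544 to 0.918 in saline libraries, and *Col3a1* to *Col1a1* from 0.707 to 1.01 and from 0.537 to 0.803. The groups overlapped for all 6 ratios, and saline 36 was the lowest library for the *Col6a3*, *Col5a1* and *Col3a1* ratios.

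**Figure D5:**
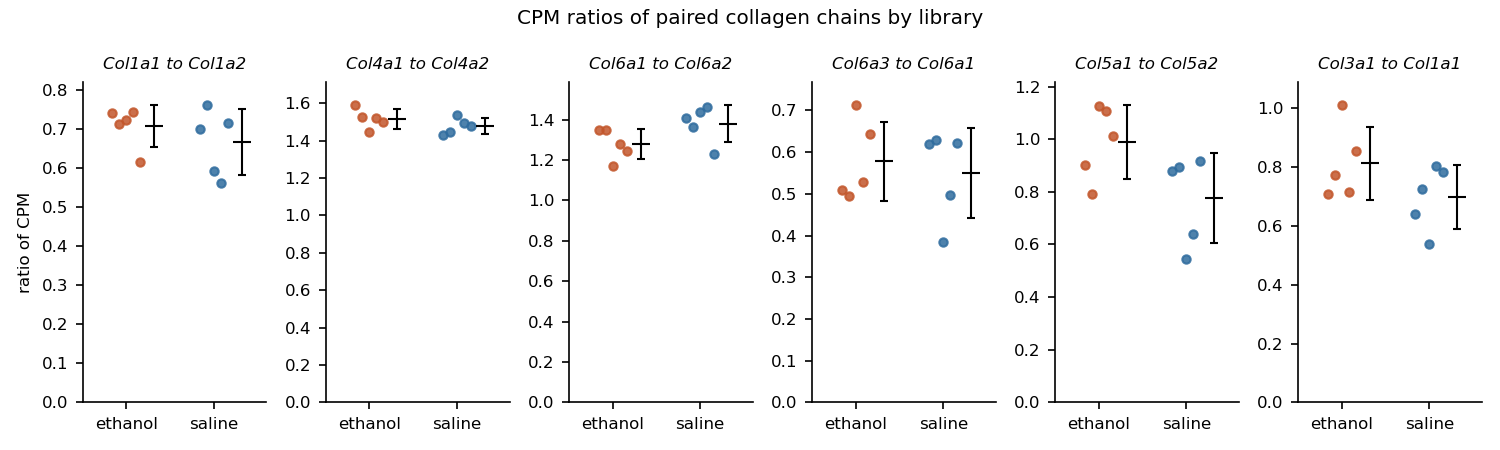
Ratio of the CPM of paired collagen chains in each library, ethanol at the left and saline at the right, with points for libraries and the mean and SD of 5. The *Col4a1* to *Col4a2* ratio stays between 1.43 and 1.59 in all 10 libraries, while *Col5a1* to *Col5a2* runs from 0.544 to 1.13.

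Genes that act on collagens were described from lists of their partners. Over all tested genes 50.2% were positive, and 6.22% were higher and 5.91% lower at an unadjusted edgeR p under 0.05. All ethanol libraries lay above all saline libraries for 1.36% of them. Of 20 tested genes for chain folding and modification, 12 had positive and 8 negative log2 fold changes (median 0.08), and 1 was at an unadjusted edgeR p under 0.05. This was *Fkbp10*, a chaperone of procollagen, at 5.36 ± 0.60 CPM in ethanol and 4.30 ± 0.43 CPM in saline libraries (SD, n = 5 each, log2 fold change 0.32). *Crtap*, of the prolyl hydroxylase complex of the endoplasmic reticulum, *Creb3l1*, a transcription factor of secretory cells, and the collagen galactosyltransferase gene *Colgalt2* followed at 0.25, 0.31 and 0.26, above that threshold. Of 12 tested genes for propeptide processing and crosslinking, 8 were positive (median 0.10) and 2 were higher at that threshold. *Pcolce*, which enhances removal of the C-terminal propeptide, stood at 27.7 ± 4.86 CPM in ethanol and 19.8 ± 2.99 CPM in saline libraries, with no overlap (log2 fold change 0.49 ± 0.13, SE, edgeR unadjusted p = 0.00179, FDR = 0.287). The lysyl oxidase relative *Loxl1* stood at 21.9 ± 2.58 CPM in ethanol and 16.9 ± 3.08 CPM in saline libraries (0.38 ± 0.13), and *Tll1* (0.42 ± 0.23) and *Loxl2* (0.14 ± 0.09) did not reach that threshold. *Lox*, the gene of this list with the most CPM, went the other way. It had 44.4 ± 10.6 CPM in ethanol and 62.0 ± 27.2 CPM in saline libraries (-0.48 ± 0.30, edgeR unadjusted p = 0.14). The 10 collagen receptor genes split into 5 positive and 5 negative (median -0.01) with none at that threshold. The smallest p values in edgeR were those of the integrin gene *Itga11* (0.34 ± 0.16), the endocytic receptor gene *Mrc2* (0.28 ± 0.15), *Ddr2* (0.18 ± 0.12) and *Lair1* (0.44 ± 0.31). *Lair1* was low, with means of 0.345 CPM in ethanol and 0.252 CPM in saline libraries.

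Of 10 tested proteases and inhibitors, 8 were positive (median 0.18) and 3 were higher at an unadjusted edgeR p under 0.05. These were the gelatinase *Mmp2* (log2 fold change 0.31 ± 0.09, SE), the fibroblast protease *Fap* (0.35 ± 0.12) and the inhibitor *Timp2* (0.25 ± 0.10). *Mmp3* was low, with means of 0.60 CPM in ethanol and 0.39 CPM in saline libraries. Its log2 fold change was 0.65 ± 0.41 (edgeR unadjusted p = 0.136), and 0.32 without ethanol 57. Of 11 other basement membrane genes, 9 were positive (median 0.14) and 2 were higher, the nidogen *Nid2* (0.34 ± 0.12) and the laminin chain *Lama4* (0.34 ± 0.13), while the laminin chain of muscle fibres, *Lama2*, was at -0.24 ± 0.12 and *Lamb2* at 0.15 ± 0.08. Among 10 fibril-associated proteoglycan and glycoprotein genes, 8 were positive (median 0.19). *Postn*, encoding periostin, stood at 8.61 ± 2.58 CPM in ethanol and 5.28 ± 0.56 CPM in saline libraries (SD, n = 5 each), with no overlap, and was called by DESeq2 (log2 fold change 0.70 ± 0.17, SE, edgeR FDR = 0.287, DESeq2 adjusted p = 0.0347). *Aspn*, encoding the proteoglycan asporin, was at -0.23 ± 0.10 (edgeR unadjusted p = 0.036), *Fmod*, encoding fibromodulin, at 0.21 ± 0.10 and the fibronectin gene *Fn1* at 0.21 ± 0.12. Of 9 ligands and targets of transforming growth factor beta, 7 were positive (median 0.14) and 2 were higher at that threshold, *Tgfb2* (0.23 ± 0.09) and *Ltbp1* (0.20 ± 0.09), and the target gene *Ctgf* was at -0.16 ± 0.09 and *Tgfbi* at 0.21 ± 0.12. None of these genes passed an FDR of 0.05 in edgeR. Over all tested genes 50.2% were positive, and 6.22% were higher and 5.91% lower at that unadjusted threshold. The groups did not overlap, with ethanol higher, for 1.36% of all tested genes.

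Markers of the cells that make collagen, and of other cells of muscle, are given beside the chains. Their part in the differences was not tested. Of all tested genes 50.2% were positive, and 6.22% were higher and 5.91% lower at an unadjusted edgeR p under 0.05. All 8 fibroblast markers had positive log2 fold changes, and 2 were at an unadjusted edgeR p under 0.05, *Pi16* (0.48) and *Clec3b* (0.46). The 8 summed to 1386 to 2142 CPM in ethanol and 1312 to 1843 CPM in saline libraries. Most of that sum was *Gsn*, with means of 1534 CPM in ethanol and 1428 CPM in saline libraries. Of 7 endothelial markers 6 were positive and 2 at that threshold, with sums of 367 to 478 CPM in ethanol and 355 to 414 CPM in saline libraries. All 6 adipocyte markers were positive (median 0.90) and 1 was at that threshold, with sums of 125 to 544 CPM in ethanol and 102 to 197 CPM in saline libraries. Their mean served as the adipocyte covariate. Since all 6 were positive, that fit cannot tell their part from that of the treatment. Under the adipocyte covariate, the log2 fold changes of all 11 higher chains were smaller, from 0.14 for *Col18a1* to 0.65 for *Col6a5*. Of the 9 that no longer passed, *Col3a1* was at 0.33, *Col6a1* at 0.25, *Col5a1* at 0.25, *Col5a3* at 0.18, *Col6a3* at 0.31, *Col14a1* at 0.31 and *Col15a1* at 0.48, and their unadjusted p ran from 0.0523 to 0.265. The 6 tendon markers were all positive, 1 at that threshold, and summed to 193 to 253 CPM in ethanol and 167 to 280 CPM in saline libraries. Most of the tendon sum was *Thbs4*, with means of 184 CPM in ethanol and 169 CPM in saline libraries. Pericyte and smooth muscle markers had 4 positive and 3 negative values, 1 of them lower at that threshold, and summed to 498 to 581 CPM in ethanol and 518 to 643 CPM in saline libraries. *Abcc9* had the most CPM of that list, with means of 211 CPM in ethanol and 244 CPM in saline libraries. Of 5 macrophage markers 4 were positive (32.7 to 53.6 CPM in ethanol, 32.6 to 53.3 in saline), as were 3 of 4 Schwann cell markers (241 to 540.3 CPM in ethanol, 249 to 438 in saline) and 2 of 3 satellite cell markers (27.0 to 31.6 CPM in ethanol, 23.7 to 29.5 in saline). None of these was at that threshold except the satellite marker *Pax7*, at 1.59 ± 0.35 CPM in ethanol and 0.858 ± 0.147 CPM in saline libraries (SD, n = 5 each), which DESeq2 called (adjusted p = 0.0322). Cartilage and bone markers summed to 4.61 to 8.95 CPM in ethanol and 4.03 to 8.10 CPM in saline libraries, with *Bglap* and *Matn1* at 0 counts in every library. Muscle fibre markers held 108869 to 130741 CPM in ethanol and 106357 to 128526 CPM in saline libraries, the highest sum of all marker lists.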

How the data were processed

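Polyadenylated RNA was sequenced from a single end with 100-base reads, per the labels' protocols. The deposited file holds raw counts, whole numbers by gene symbol, of 10 libraries. TopHat2, DESeq2 1.6.3 and mm10 are named in the submitters' processing notes with no role. How reads were counted, with which gene models and strand setting, is not given in the sources used here. Reads of overlapping and antisense genes therefore cannot be told apart. In 27 rows the symbol had become a date, and these stayed in the totals.

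Counts were filtered with filterByExpr (minimum count 10, minimum total 15), scaled by TMM and tested with edgeR 4.0.16 (robust quasi-likelihood F test, ethanol minus saline, Benjamini-Hochberg adjustment over 13180 genes, FDR 0.05). No block entered the fit, since no animal number occurs in both groups. Standard errors were taken from the F statistic, and intervals are 95%. P-values are for the difference between groups, judged against the spread between mice. Exon lengths (merged exons), GC content and coordinates come from GENCODE M21 on GRCm38. All 44 chain genes were matched.

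Alternatives were DESeq2 1.42.0, limma-voom 3.58.1, RLE and total-count scaling, 1 surrogate variable (sva 3.50.0), no filter, a stricter filter (5 CPM on average), non-robust dispersion, thinning to the smallest total, removal of each library's GC trend (lowess, span 0.3), the adipocyte mean as a covariate, each library left out, and saline 36 with ethanol 60 left out. Removal of GC and exon length trends together was chosen after seeing the data. All ran in R 4.3.3, and the procedure was tested on simulated counts.

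Values in every library were given for up to 4 chains of each class with the highest CPM per kilobase and for every chain at an unadjusted p under 0.05, and values for up to 4 genes of each partner list with the smallest p. *Lox* was added as the gene with the most CPM in its list and is not among the named genes counted below. The members, lists and comparisons were chosen with earlier results of these data known.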

Additional observations from a re-analysis of the deposited data

Results flagged for a closer look

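Values of the named genes, class sums and chain ratios were examined in each group of 5, 142 groups in all, and 2 held a library far from the others, where chance alone flags about 1 group in 20. *Col6a5* stood at 1.81 CPM in ethanol 57, against 0.51 to 0.689 CPM in the other ethanol libraries. The ratio of *Col1a1* to *Col1a2* was 0.614 in ethanol 62, against 0.712 to 0.743 in the other ethanol libraries.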

How the results depend on the processing

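No paired analysis was possible because the groups share no animal number. Of 55 named genes, 48 kept the sign of their log2 fold change in every alternative fit that tested them, among them 20 of 27 named chains. The partner genes and some of the chains were named for a small p in these data. The 48 is therefore no measure of stability. Of all 39 tested chains, 27 kept their sign. Genes past FDR 0.05 numbered 0 in edgeR, 54 with DESeq2 and 7 with 1 surrogate variable, and 0 to 1 without single libraries. Collagen chains past it numbered 0, and 2 with DESeq2. Chains higher at an unadjusted p under 0.05 numbered 11, but 2 with the adipocyte covariate (beside 3.69% of all genes, against 6.22%), 7 without saline 36 and ethanol 60 (4.08% of genes), and 8 to 12 without single libraries. Chains lower numbered 1, but 0 with limma-voom, with 1 surrogate variable, with the adipocyte covariate and without saline 36 and ethanol 60, and 0 to 2 without single libraries. At a mean of 5 CPM or more there were 0, but that filter removed the chain in question, *Col4a3*, before the test. The median log2 fold change of the chains was 0.16, and 0.31 at a mean of 5 CPM or more, where 20 chains were tested. The multiplexin ratio was 1.44, and 1.30 to 1.54 without single libraries.

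The 12 chains whose sign turned had log2 fold changes from -0.17 to 0.16, and the cause was not tested. Beside the 7 named chains these were *Col9a1* (-0.035 to 0.33 over its alternatives), *Col9a2* (-0.20 to 0.34), *Col11a1* (-0.12 to 0.18), *Col11a2* (-0.054 to 0.24) and *Col12a1* (-0.14 to 0.094). *Col4a2* was at -0.019 with the GC trend removed and -0.017 with GC and length trends removed. *Col4a5* was at -0.16 with the adipocyte covariate, -0.11 without saline 36 and ethanol 60, and -0.054 to 0.16 without single libraries. *Col22a1* was at -0.0011 with DESeq2, -0.000641 with RLE, -0.0033 with no filter, -0.052 with the GC trend removed, -0.031 with GC and length trends removed, and -0.031 to 0.073 without single libraries. *Col7a1* ran from -0.0047 to 0.26 without single libraries, *Col13a1* was at 0.0037 with the adipocyte covariate, and *Col28a1* at 0.14 with 1 surrogate variable. *Col26a1* was at -0.075 with 1 surrogate variable, -0.015 after thinning, -0.11 with the adipocyte covariate, -0.042 without saline 36 and ethanol 60, and -0.052 to 0.32 without single libraries. The standard errors of the chains below about 1 CPM ran from 0.25 for *Col4a6* to 0.37 for *Col6a5*, and the part of depth was not tested.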
